A study of Botryllus schlosseri with 42 samples.

Results

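Whole fertile colonies of the colonial ascidian Botryllus schlosseri were compared with whole infertile colonies at stage B1 of the blastogenic cycle, the recurring round of budding in which primary buds replace the parent zooids. The comparison used 6 of the 42 libraries of the series, 3 fertile and 3 infertile, chosen by the stage and the fertility given in their labels. The fertile group, labelled hermaphrodite, consisted of genotype SB801, genotype SB841 and a mix of SB802a, SB804 and SB722. The infertile group consisted of SB802d, SB-BB-001 and a mix of SB831, SB645, SB714, SB841 and SB842, so that genotype SB841 contributed to both groups. All colonies were raised in the laboratory, their age was not given in the sources used here, and each library held polyadenylated RNA of whole colonies, gonads and somatic tissue together. In such bulk samples fewer cells of a type and less RNA per cell cannot be told apart. Transcripts were counted on 50106 contigs of an EST assembly, and a contig is not a gene: several contigs with the same homolog can be pieces, alleles or copies that share reads.

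A fertile Botryllus colony is either a hermaphrodite, with testes and eggs side by side in its zooids and buds, or male only. An infertile colony carries neither testes nor eggs and keeps only germline precursor cells. Testes develop within the cycle in the buds and zooids. Oocytes take longer, move from one bud generation to the next, and take up yolk, stored lipoprotein for the embryo, before they ovulate. Sperm differentiation is known in animals for meiosis-specific chromosome proteins, for compaction of chromatin with dedicated histones, and for assembly of a motile tail around a microtubule axoneme.

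The deposited values were group means of 3 libraries, and the single libraries were recovered from them as whole read pairs. At B1 this was possible for 50024 contigs in both groups, and the 82 others included the most abundant transcripts, which held 28.5% of the infertile and 36.3% of the fertile mean total. Over the recovered contigs the fertile libraries held 12939368, 10754897 and 8340824 read pairs and the infertile libraries 15813646, 11911297 and 9992017. Values are normalized counts, in which a read pair counts as 2 reads divided by the size factor of its library and is worth between 1.54 and 2.70 normalized counts. The recovered libraries carry no genotype name and are numbered within each group from the largest size factor to the smallest. For a contig with no read pair in any infertile library, the ratio used a detection floor of 3 read pairs per library. This floor is 5.78 normalized counts as a mean over the infertile libraries, and such ratios are given as "at least". Where any infertile library held a read pair, no floor was used, and empty libraries entered the group mean as they were. Floors and counting intervals cover counting error only. Nothing in the labels says whether the libraries of a group came from separate cultures, so that p-values measure the spread between these samples.

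Infertile library 3 stood apart from its group. Across the 39112 contigs tested, its log2 values had a Pearson correlation of 0.90 with fertile library 3, against 0.76 and 0.79 with infertile libraries 1 and 2. The other correlations within groups lay between 0.80 and 0.89. These correlations are across contigs of libraries that share an assembly, and contigs are not independent. On the first principal component the 3 fertile libraries lay at -95.1, -87.8 and -115.5 and infertile library 3 at -47.8, while infertile libraries 1 and 2 lay at 141.6 and 204.6. Counts of calls over all contigs are therefore given with and without this library, as are those of many of the lists.

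A contig was called when limma, on log2(normalized count + 1), gave a Benjamini-Hochberg adjusted p under 10% over all contigs whose mean over the 6 libraries reached 10 normalized counts. At B1, 505 contigs were higher in fertile colonies, 1.29% of the 39112 tested, and 1 was lower, 0.00256%. At an unadjusted p under 0.05 by limma the counts were 2148 and 994. With no difference at all, 5% of contigs would be expected under that p, both directions together, so that these are not counts of calls. With voom weights on the recovered read pairs 99 were called higher and 1 lower. The called contigs were in most cases close to absent from infertile colonies: 50 of the 505 had no read pair in any infertile library, 133 had 1 to 3 read pairs in all, and the 322 others had a median ratio of group means of 35.2, with quartiles of 17.2 and 97.3. Their fertile means ran from 17.8 to 45604 normalized counts with a median of 224. All 505 had 3 fertile libraries above all 3 infertile libraries, a separation that 8.04% of all contigs tested showed. Together they made up 2.84% of the recovered total in fertile colonies and 0.0584% in infertile colonies. The median log2 difference over all contigs tested was 0.003.

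**Figure D1:**
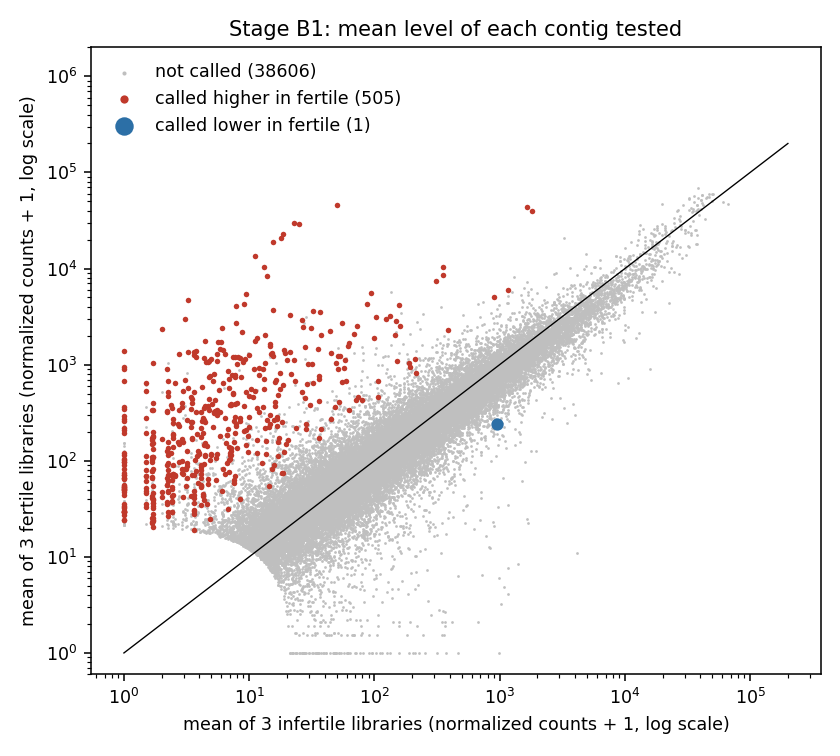
Mean normalized count of each contig tested at stage B1 in the 3 fertile libraries (vertical axis) against the 3 infertile libraries (horizontal axis), both plus 1 and on log scales, with the line of equality. The 505 contigs called higher in fertile colonies lie far above the line, many at or near 0 in infertile colonies, and 1 called contig lies below it.

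Leaving out infertile library 3 raised the calls to 827 higher (2.12% of 39099 tested) and 146 lower (0.373%). Of those 827, 451 were among the 505. The counts were lower without fertile library 1 (212 higher) or fertile library 2 (259 higher), and lower by over 1.5 times without infertile library 2 (326). Within the fertile group the 505 contigs had the same order in most cases: 416 were highest in fertile library 1, 74 in fertile library 2 and 15 in fertile library 3. The median contig stood at 143%, 93.3% and 62.1% of its fertile mean in these 3 libraries and at 1.1%, 1.1% and 1.83% in infertile libraries 1, 2 and 3.

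**Figure D2:**
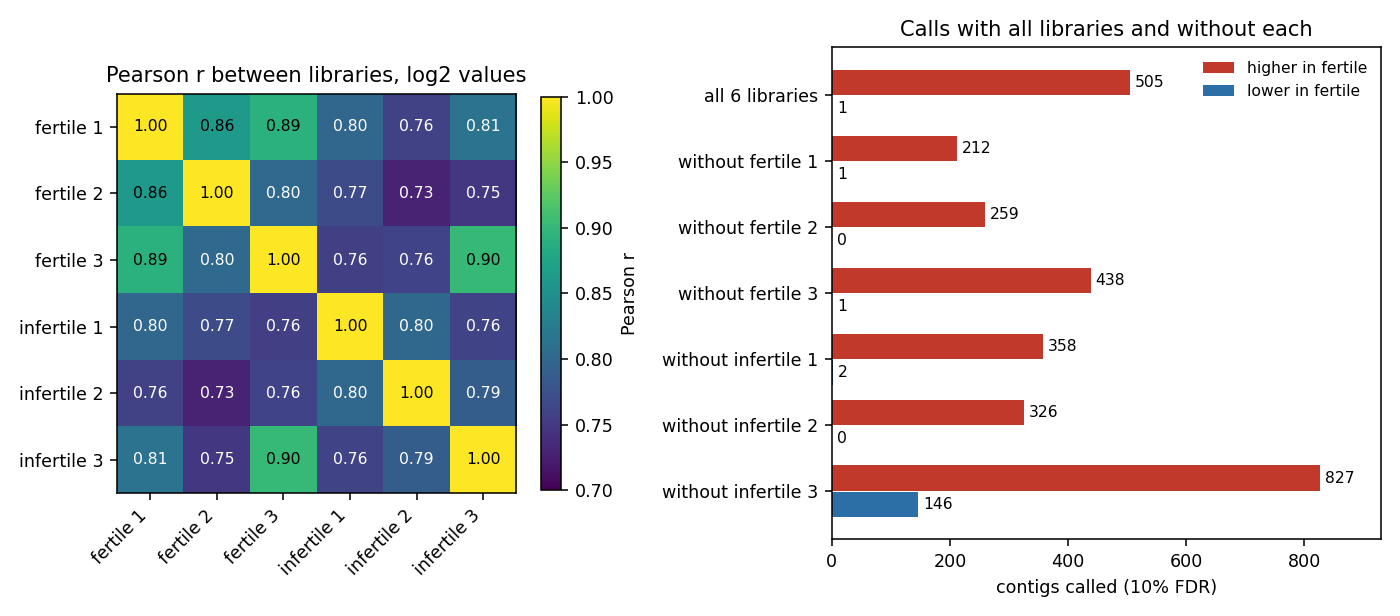
Left, Pearson correlations of log2 values between the 6 stage B1 libraries across 39112 contigs, where infertile library 3 and fertile library 3 share an r of 0.90. Right, numbers of contigs called at 10% FDR with all libraries and without each one, higher (red) or lower (blue) in fertile colonies, where only leaving out infertile library 3 gives more than 2 contigs called lower.

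Homolog names came from the supplementary sheets of the study, which list contigs by the study's own test on these libraries. A name of a human homolog was at hand for 2134 of the 50106 contigs, and 1994 of these were tested. Of those 1994, 12.4% were called higher, a share that the selection of the sheets sets, so that the counts below describe named contigs and are no measure of how often a gene family responds. Among the same 1994, 656 had all fertile libraries above all infertile ones and 179 had all below. Counts at an unadjusted p under 0.05 by limma carry the same selection. Over all 39112 contigs tested they were 2148 higher and 994 lower. Of the 505 called contigs, 248 had a human homolog and 164 fell in 1 of the 24 lists used here.

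The yolk list, contigs that match the same Ciona protein as vtg-1, had the largest median difference of the 24 lists. The contig vtg-1 had the highest fertile mean of the 505 called contigs. The study named this contig vitellogenin-1 (vtg-1, CAP3_round1_contig_5534), after the precursor of yolk lipoprotein. Its Ciona homolog LOC100177400 is listed as uncharacterized, and the other contigs of the list were placed here by that match alone. The study found vtg-1 mRNA on maturing eggs and also in cells around the testes. The contig held 71566, 30523 and 34723 normalized counts in fertile libraries 1, 2 and 3 and 105, 14.5 and 28.1 in infertile libraries 1, 2 and 3. The fertile group was 927-fold higher, a log2 difference of 10.19 ± 0.78 (SE), adjusted p = 0.00459. All fertile libraries lay far above all infertile ones, and fertile library 1 held over 2 times as much as either of the others. Bot_rep_c47465, with the same Ciona homolog, held 31232, 14343 and 16446 in the fertile libraries against 29.3, 8.28 and 13.0 in the infertile libraries, 1226-fold higher (adjusted p = 0.00305). Bot_rep_c52197 held 6770.2, 3478 and 3919 in the fertile libraries against 4.63, 0 and 2.16 in the infertile libraries (adjusted p = 0.00433), and Bot_rep_c50316 held 11608, 7015 and 6351 in the fertile libraries against 27.8, 4.14 and 6.49 in the infertile libraries (adjusted p = 0.00444). All 5 recovered contigs of this homolog were called higher, with a median log2 difference of 10.27, and all 5 stayed called when any 1 library was left out. The sixth, CAP3_round1_contig_3261, could not be recovered per library; the authors' means were 67043 in fertile and 111 in infertile colonies. Summed over the 5 recovered contigs, the list reached 164908, 79181 and 80931 in fertile libraries 1, 2 and 3 and 224, 33.1 and 58.4 in infertile libraries 1, 2 and 3.

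Receptors of the low-density lipoprotein family bind and internalise lipoproteins, in birds also yolk precursors at the oocyte. The contig the study named ldlr, Bot_rep_c45532 (homolog of prolow-density lipoprotein receptor-related protein 1), held 1072, 1039.9 and 1718 normalized counts in fertile libraries 1, 2 and 3 and 18.5, 10.3 and 13.0 in infertile libraries 1, 2 and 3. It was 91.5-fold higher in fertile colonies (log2 difference 6.41 ± 0.40 (SE), adjusted p = 0.00419), and here fertile library 3 was the highest, unlike in vtg-1. Bot_c22230 (very low-density lipoprotein receptor) held 183, 46.9 and 59.3 in the fertile libraries and 0 in all 3 infertile libraries, at least 16.7-fold higher (adjusted p = 0.00715). Of 13 tested contigs of this list 2 were called, 1 with voom weights, and the median log2 difference was 2.003. Bot_c2594 (low-density lipoprotein receptor-related protein 2) held 3380.1, 7966 and 4549.6 in the fertile libraries against 834, 683 and 3517 in the infertile libraries and was not called (adjusted p = 0.569): infertile library 3 exceeded fertile library 1. Without that library its adjusted p was 0.0968, in a range of 0.0968 to 0.988 over the 6 leave-outs.

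Other contigs that the study followed in eggs and their envelopes were lower in abundance. By in situ hybridization the study also located zp-1 along the endostyle and selp on the siphons, and saw both signals in infertile colonies. The contig named zp-1 (Bot_c16824) has the human homolog GP2, which like the zona pellucida proteins of the mammalian egg coat carries a zona pellucida domain. It held 133, 63.8 and 91.7 normalized counts in fertile libraries 1, 2 and 3 and 0, 2.07 and 0 in infertile libraries 1, 2 and 3, 139-fold higher with a 95% counting interval of 25.01 to 5504 (adjusted p = 0.00898). The contig named tll-1 (Bot_c3513), a homolog of meprin A subunit beta and so of the astacin metalloproteases, held 271, 304 and 64.7 in the fertile libraries against 4.63, 4.14 and 8.66 in the infertile libraries, 36.7-fold higher (adjusted p = 0.0406). Its call was lost without fertile library 1 or 2 or infertile library 1 or 2. P-selectin (selp, Bot_c13044), an adhesion lectin, held 495, 432 and 159 in the fertile libraries against 1.54, 4.14 and 0 in the infertile libraries and was 191-fold higher with a 95% counting interval of 65.4 to 927 (adjusted p = 0.0115). Estradiol 17-beta-dehydrogenase 8 (hsd17b8, Bot_c2901), an oxidoreductase, held 101, 82.6 and 124 in the fertile libraries against 13.9, 4.14 and 39.0 in the infertile libraries. Its fertile libraries lay above all infertile ones, 5.41-fold higher as a ratio of means, but it was not called (adjusted p = 0.354), and without infertile library 3 its adjusted p was 0.0698 (range over the 6 leave-outs 0.0698 to 0.96).

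**Figure D3:**
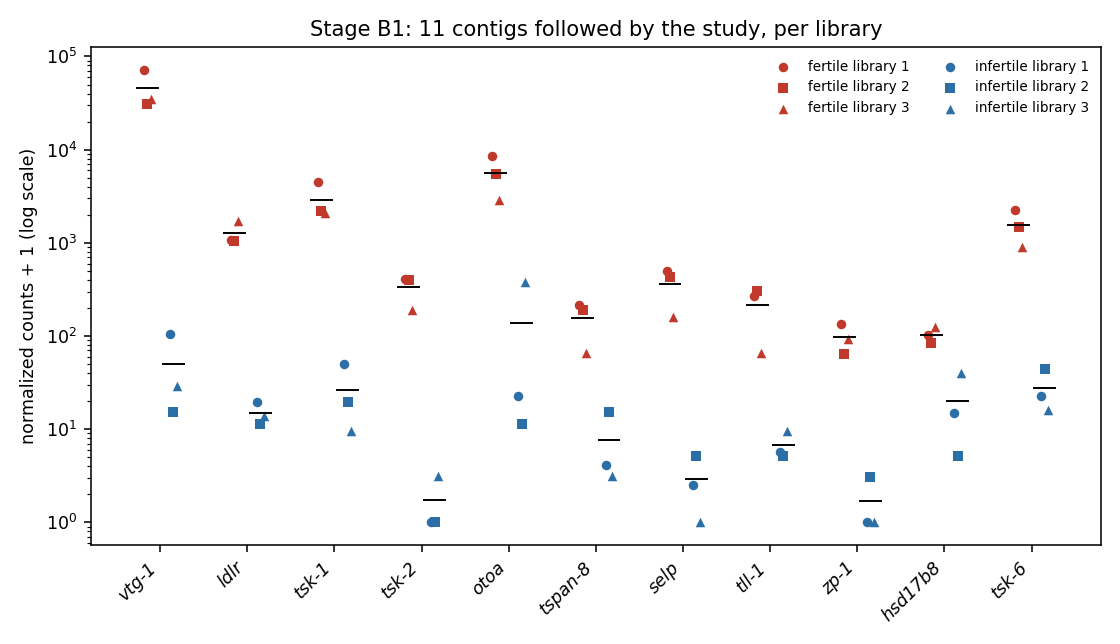
Normalized counts plus 1 (log scale) of the 11 contigs that the study followed, in each library at stage B1; points are libraries and bars group means. In each of the 11, the 3 fertile libraries lie above the 3 infertile ones, as they do in 8.04% of all contigs tested. Infertile library 3 is the highest infertile library for otoa, tsk-2, tll-1 and hsd17b8.

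Testis-specific serine/threonine kinases, which in mammals are active in spermatids, were called in all 5 of 5 contigs, with a median log2 difference of 7.75. The contig named tsk-1 (Bot_rep_c45338) held 4484, 2172 and 2066 normalized counts in fertile libraries 1, 2 and 3 and 49.4, 18.6 and 8.66 in infertile libraries 1, 2 and 3, 114-fold higher (adjusted p = 0.00942). Bot_rep_c35291, another homolog of testis-specific kinase 1, held 1221, 927 and 957 in the fertile libraries against 0, 0 and 2.16 in the infertile libraries, with a single read pair in the infertile group (adjusted p = 0.00305). Bot_rep_c45613, also a homolog of this kinase, held 2272, 773 and 774 in the fertile libraries against 1.54, 2.07 and 4.33 in the infertile libraries (adjusted p = 0.00433). The contig tsk-2 (Bot_rep_c36244) held 409, 402 and 191 in the fertile libraries against 0, 0 and 2.16 in the infertile libraries, 463-fold higher with a 95% counting interval of 83.1 to 18284 (adjusted p = 0.00493). The study located tsk-2 mRNA in oocytes as well as in developing testes. The contig tsk-6 (CAP3_round1_contig_9899), whose listed homolog is testis-specific kinase 4, held 2230.2, 1490.4 and 901 in the fertile libraries against 21.6, 43.5 and 15.2 in the infertile libraries, 57.6-fold higher (adjusted p = 0.00844). All 5 stayed called without any 1 library, and 3 were called with voom weights. Summed over the 5 contigs, the kinases reached 10616, 5764 and 4889 in fertile libraries 1, 2 and 3 and 72.5, 64.2 and 32.5 in infertile libraries 1, 2 and 3.

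The axoneme is the microtubule core of cilia and sperm tails, and its dynein motors bend it. Of 61 tested contigs of axonemal and sperm-tail homologs, 37 were called higher and 0 lower, with a median log2 difference of 4.64. The 37 included 7 of 8 contigs of axonemal dynein heavy chain 8, 6 of 8 of heavy chain 17, 3 of 5 of heavy chain 5 and 3 of 6 of heavy chain 9. Heavy chain 11 had 1 call in 3 contigs. Heavy chains 1 and 10 had 0 in 3 each, and heavy chains 3 and 7 had 0 in 1 each. Sperm flagellar protein 2, sperm-associated antigen 17 and radial spoke head 10 homolog B2 also had 0 in 1 each. Outer dense fibre proteins, which sheath the axoneme of the mammalian sperm tail, were represented by Bot_rep_c52016 (outer dense fiber protein 3-like protein 2), which held 1590.3, 880.3 and 537 normalized counts in fertile libraries 1, 2 and 3 and 6.17, 6.21 and 8.66 in infertile libraries 1, 2 and 3, 143-fold higher (adjusted p = 0.00433). CAP3_round1_contig_8769 (FAM166B) held 1219.8, 610.0 and 437 in the fertile libraries against 3.08, 4.14 and 4.33 in the infertile libraries (adjusted p = 0.00433). Bot_c22615 (C9orf116) held 73.1, 39.4 and 35.1 in the fertile libraries and 0 in all 3 infertile libraries (adjusted p = 0.00434), at least 8.52-fold higher. The list also holds light chains of cytoplasmic dynein, intraflagellar transport proteins and tubulin polyglutamylases, which act outside sperm tails too. Cilia also line somatic tissue, and the summed list was not at 0 in infertile colonies: it reached 27006, 17708 and 12069 in fertile libraries 1, 2 and 3 and 1654, 1443 and 2522 in infertile libraries 1, 2 and 3. The count of calls was 18 without fertile library 1, 22 without fertile library 2 and 23 and 24 without infertile libraries 1 and 2. It was 38 without infertile library 3 and 5 with voom weights.

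Tubulins, the subunits of microtubules, went both ways by contig. Of 29 tested tubulin contigs, 6 were called higher and 0 lower, 5 of the 6 among the 12 contigs of beta-2C. The median log2 difference of the list was 0.64. In 13 of the 29 all fertile libraries lay above all infertile ones, and in 8 all lay below. Of the 1994 tested contigs with a human homolog, 656 lay all above and 179 all below. CAP3_round1_contig_6824 held 11623, 8621 and 5569 normalized counts in fertile libraries 1, 2 and 3 and 162, 195 and 703 in infertile libraries 1, 2 and 3, 24.4-fold higher (adjusted p = 0.0311). CAP3_round1_contig_6873 held 10238, 7328 and 4612 in the fertile libraries against 149.6, 224 and 549.8 in the infertile libraries (adjusted p = 0.0237), and CAP3_round1_contig_9496 held 4563, 3007 and 2125 in the fertile libraries against 81.7, 89.0 and 223 in the infertile libraries (adjusted p = 0.0168). In all of these infertile library 3 was the highest of its group but remained under every fertile library. Contigs that share the beta-2C homolog may share reads, so that their counts are uncertain. With all libraries 13 contigs were higher and 6 lower by limma at an unadjusted p under 0.05. Without fertile library 1 the list had 0 calls. Without fertile library 2 or infertile library 2 it had 1, without infertile library 1 it had 3 and without infertile library 3 it had 8.

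Sperm motility is controlled in many animals by ion channels and cyclic nucleotides. Of 23 tested contigs of this list, 15 were called higher and 0 lower (median log2 difference 4.78), among them 4 of 6 of the hyperpolarization-activated channels and 1 contig each of CatSper subunits 1, 2, 3 and 4, the sperm calcium channel. Bot_c2194 (cyclic phosphodiesterase 10A, which degrades cyclic nucleotides) held 2991, 1166 and 1184 normalized counts in fertile libraries 1, 2 and 3 and 9.25, 8.28 and 13.0 in infertile libraries 1, 2 and 3, 175-fold higher (adjusted p = 0.00433). Adenylate cyclase type 10, the bicarbonate-sensitive cyclase of mammalian sperm (CAP3_round1_contig_1010), held 88.1, 69.5 and 56.6 in the fertile libraries against 3.08, 2.07 and 4.33 in the infertile libraries (adjusted p = 0.00798). The sodium/hydrogen exchanger 10 contig Bot_rep_c44693, whose homolog is a sperm exchanger in mice, held 357, 249.6 and 175 in the fertile libraries against 3.08, 8.28 and 10.8 in the infertile libraries (adjusted p = 0.0117). Fertile library 1 was the highest in all 3. The calls numbered 4 without fertile library 1, 7 without fertile library 2, 9 without infertile library 1 and 6 without infertile library 2. There were 18 without infertile library 3 and 5 with voom weights.

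Meiotic genes followed the same direction. Of 15 tested contigs, 10 were called higher and 0 lower, the median log2 difference was 4.055, and all 15 had 3 fertile libraries above all infertile ones. That separation held for 656 of the 1994 tested contigs with a human homolog and for 8.04% of all contigs tested. The called contigs included all 3 of synaptonemal complex protein 3, a component of the chromosome axis. Also called were those of SPO11, which makes meiotic double-strand breaks, of the cohesin REC8 and of HORMA domain-containing protein 2. Cyclin-A1, needed for male meiosis in mice (CAP3_round1_contig_4222), held 1742, 1205 and 1049 normalized counts in fertile libraries 1, 2 and 3 and 10.8, 8.28 and 23.8 in infertile libraries 1, 2 and 3, 93.2-fold higher (adjusted p = 0.00458). Speedy protein A (Bot_c17706), a Cdk activator, held 324, 267 and 140.2 in the fertile libraries against 0, 0 and 4.33 in the infertile libraries, 169-fold higher with a 95% counting interval of 46.7 to 1394 (adjusted p = 0.0132). The synaptonemal complex protein 3 contig Bot_c2651 held 203, 158 and 72.8 in the fertile libraries against 1.54, 2.07 and 6.49 in the infertile libraries (adjusted p = 0.0185). Calls fell to 2 without fertile library 1 or 2, to 4 without infertile library 1, to 5 without infertile library 2 and to 2 with voom weights. Without infertile library 3 there were 10.

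Germline determinants and the piRNA pathway mark germ cells from their origin on and are also expressed in precursor cells. Of 10 tested contigs 2 were called higher with all libraries and 0 with voom weights, with a median log2 difference of 1.71. No call fell on piwi-like protein 1 (2 contigs), DDX4, the vasa homolog (1), maelstrom (1) or tudor domain-containing proteins 1 (2) and 6 (1). By its own test the study reported no significant difference for vasa, nanos or piwi between fertile and infertile colonies. At an unadjusted p under 0.05 limma had 8 of the 10 higher, and 8 had all fertile libraries above all infertile ones. Over all 39112 contigs tested 2148 were higher at that p, and 656 of the 1994 with a human homolog had that separation. Bot_c494 (nanos homolog 2, a translational repressor of germ cells) held 283, 231 and 129 normalized counts in fertile libraries 1, 2 and 3 and 18.5, 20.7 and 43.3 in infertile libraries 1, 2 and 3, 7.79-fold higher (adjusted p = 0.0756). Bot_rep_c49013 (tudor domain-containing protein 7) held 184, 417 and 213 in the fertile libraries against 49.4, 31.0 and 51.9 in the infertile libraries (adjusted p = 0.0945). CAP3_round1_contig_6644, with the same homolog, held 204, 342 and 199.6 in the fertile libraries against 12.3, 35.2 and 71.4 in the infertile libraries and was not called (adjusted p = 0.239). In these the infertile libraries were well above the detection floor, and fertile library 2 was the highest in both tudor contigs. Both calls were lost without any fertile library and without infertile library 1 or 2, and that of Bot_rep_c49013 also without infertile library 3. Summed over the list, the libraries held 4990.4, 9443 and 4285 in fertile libraries 1, 2 and 3 and 1367, 2076 and 2671 in infertile libraries 1, 2 and 3.

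Linker histone H1.0 binds DNA between nucleosomes. All 9 of 9 contigs with this homolog were called higher, with a median log2 difference of 8.95. Bot_rep_c52805, among the 5 contigs with the smallest p, held 1356, 785 and 566 normalized counts in fertile libraries 1, 2 and 3 and 0, 0 and 0 in infertile libraries 1, 2 and 3 and was at least 156-fold higher (adjusted p = 0.00231). Bot_rep_c45042 held 7638, 2095 and 2365 in the fertile libraries against 7.71, 2.07 and 10.8 in the infertile libraries (adjusted p = 0.00527), and Bot_rep_c34825 held 5060.2, 8984 and 2276 in the fertile libraries against 12.3, 2.07 and 10.8 in the infertile libraries (adjusted p = 0.00571). The fertile libraries differed among themselves in which contig was highest: fertile library 1 for Bot_rep_c45042 and fertile library 2 for Bot_rep_c34825. Summed, H1.0 contigs held 41642, 33580.3 and 11613 in fertile libraries 1, 2 and 3 and 103, 26.9 and 179.6 in infertile libraries 1, 2 and 3. The calls fell to 3 without fertile library 1, to 5 without fertile library 2 and to 2 with voom weights, and stayed at 9 without infertile library 3.

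Core histones form the nucleosome, and 3 of 5 contigs were called higher. CAP3_round1_contig_5576 (H2B type 1-L) held 1733, 863 and 860.3 in the fertile libraries against 7.71, 2.07 and 2.16 in the infertile libraries, 289-fold higher (adjusted p = 0.00433). CAP3_round1_contig_1301 (H2B type 3-B) held 209, 212 and 94.4 in the fertile libraries against 3.08, 0 and 4.33 in the infertile libraries (adjusted p = 0.023), and the variant H2A.Z contig Bot_rep_c35712 held 523, 663 and 165 in the fertile libraries against 24.7, 39.3 and 17.3 in the infertile libraries (adjusted p = 0.0672). The summed list did not separate the groups, at 7938, 5539 and 6958 in fertile libraries 1, 2 and 3 and 7989.8, 12995 and 4400.3 in infertile libraries 1, 2 and 3. Without fertile library 1 or 2, or with voom weights, there was 1 call, and the H2A.Z call was also lost without each infertile library.

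The ubiquitin pathway tags proteins for degradation through ligases whose F-box or Kelch-like subunits choose the substrate. Of 42 tested contigs, 18 were called higher and 0 lower (median log2 difference 2.82). F-box only protein 24 (Bot_c25439) held 2086, 1342 and 639 normalized counts in fertile libraries 1, 2 and 3 and 1.54, 2.07 and 4.33 in infertile libraries 1, 2 and 3, 512-fold higher (adjusted p = 0.00433). Kelch-like protein 10, required in mouse spermatids (Bot_c24963), held 396, 261 and 178 in the fertile libraries against 1.54, 0 and 0 in the infertile libraries and was 541-fold higher with a 95% counting interval of 97.1 to 21367 (adjusted p = 0.00433). It was 1 of 7 contigs with that homolog, of which 3 were called. CAP3_round1_contig_3411 (FAS-associated factor 1, a ubiquitin-binding protein) held 440.4, 278 and 240.0 in the fertile libraries against 1.54, 2.07 and 0 in the infertile libraries (adjusted p = 0.00458), and all 3 contigs of this homolog were called. The calls numbered 9 without fertile library 1, 10 without fertile library 2, 12 without infertile library 1 and 20 without infertile library 3. With voom weights 1 contig of the list was called, and the 3 named here were not.

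Otoancorin is known in mammals as a protein that anchors gels to the epithelium of the inner ear. Its 10 contigs were high in all fertile libraries, above all infertile ones in 10 of 10, but only 2 were called with all 6 libraries (median log2 difference 5.39). Such a separation held for 656 of the 1994 tested contigs with a human homolog and for 8.04% of all contigs tested. The contig followed by the study, otoa (CAP3_round1_contig_9042), held 8523, 5529.8 and 2905 normalized counts in fertile libraries 1, 2 and 3 and 21.6, 10.3 and 374 in infertile libraries 1, 2 and 3. The log2 difference was 6.81 ± 1.31 (SE) and the adjusted p was 0.125; without infertile library 3 the adjusted p was 0.013 (range over the 6 leave-outs 0.013 to 0.535). CAP3_round1_contig_7515 held 8517, 4863 and 3131 in the fertile libraries against 15.4, 22.8 and 238 in the infertile libraries (adjusted p = 0.0555), and Bot_rep_c51823 held 7294, 3437 and 2179 in the fertile libraries against 15.4, 14.5 and 227 in the infertile libraries (adjusted p = 0.0788). Infertile library 3 exceeded the other infertile libraries in each of these contigs by over 10 times. Summed over the 10 contigs, the libraries held 34089, 18093 and 11785 in fertile libraries 1, 2 and 3 and 86.4, 169.7 and 1898 in infertile libraries 1, 2 and 3. Without infertile library 3, 9 of the 10 were called, and without any fertile library or infertile library 2 there were 0.

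Proteases that act outside the cell were called in both families examined. Of 21 contigs of the ADAM, meprin and tolloid metalloproteases, 10 were higher (median log2 difference 4.26), including all 4 of ADAM12. Bot_rep_c37563 (an ADAM homolog) held 537, 135 and 194 normalized counts in fertile libraries 1, 2 and 3 and 0, 0 and 0 in infertile libraries 1, 2 and 3, at least 49.97-fold higher (adjusted p = 0.00433). Bot_rep_c49149 held 309, 237 and 78.2 in the fertile libraries and 0 in all 3 infertile libraries (adjusted p = 0.00458), and CAP3_round1_contig_2011 held 477, 128 and 148 in the fertile libraries against 3.08, 2.07 and 2.16 in the infertile libraries (adjusted p = 0.00898). The summed list did not separate the groups, since infertile library 1 held 21458 against 2076 and 3387 in the others and 28816, 29159.8 and 11899 in the fertile libraries. Calls numbered 5 without fertile library 1 or 2, 6 without infertile library 2 and 2 with voom weights. Of 13 contigs of trypsin-like serine proteases with plasma homologs, 6 were higher (median log2 difference 3.36). Plasma kallikrein (CAP3_round1_contig_2527) held 959, 398 and 569 in the fertile libraries against 4.63, 0 and 0 in the infertile libraries, 416-fold higher with a 95% counting interval of 142 to 2018 (adjusted p = 0.00838). Plasminogen (Bot_c499) held 643, 541 and 372 in the fertile libraries against 21.6, 37.3 and 17.3 in the infertile libraries (adjusted p = 0.0101), and apolipoprotein(a) (Bot_c18361) held 133, 135 and 89.0 in the fertile libraries against 10.8, 12.4 and 8.66 in the infertile libraries (adjusted p = 0.0121). The summed serine proteases were highest in fertile library 3, at 10477 against 4709.6 and 6449.5, the reverse of the order in the sperm lists. Without fertile library 1 there were 3 calls, and with voom weights there was 1.

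Lectins and adhesion proteins held a few contigs with large differences. Among 14 tested selectins and C-type lectins 4 were called (median log2 difference 2.24). CAP3_round1_contig_5452 (C-type lectin domain family 4 member K) held 2180.3, 304 and 1362 normalized counts in fertile libraries 1, 2 and 3 and 3.08, 0 and 2.16 in infertile libraries 1, 2 and 3, 733-fold higher with a 95% counting interval of 251 to 3553 (adjusted p = 0.0109). Bot_rep_c48488, with the same homolog, held 2946, 339.7 and 1834 in the fertile libraries against 6.17, 0 and 8.66 in the infertile libraries (adjusted p = 0.0363), and in both fertile library 2 was the lowest fertile library by a wide margin. Without fertile library 1 or 3 or infertile library 1 there were 2 calls in this list, without infertile library 3 there were 6, and with voom weights 0 (7 higher by limma at an unadjusted p under 0.05). Of 44 tested contigs of the extracellular matrix and adhesion list 6 were called (median log2 difference 0.43), 4 of them among 13 contigs of hemicentin-1, a matrix protein. The hemicentin contig Bot_c1197 held 3013, 2044 and 979 in the fertile libraries against 29.3, 31.0 and 49.8 in the infertile libraries (adjusted p = 0.00798), and Bot_c1263 held 899, 918 and 302 in the fertile libraries against 16.97, 6.21 and 13.0 in the infertile libraries (adjusted p = 0.0121). Tenascin, a matrix glycoprotein (CAP3_round1_contig_973), held 1203, 1047 and 432 in the fertile libraries against 18.5, 4.14 and 13.0 in the infertile libraries (adjusted p = 0.0123). The contig the study named tspan-8 (Bot_c16543), listed with the tetraspanin CD63 as its homolog, held 213, 188 and 64.7 in the fertile libraries against 3.08, 14.5 and 2.16 in the infertile libraries, 23.6-fold higher (adjusted p = 0.0752), and it lost its call without fertile library 1 or 2 or infertile library 1 or 3. Without fertile library 1 or 2 or infertile library 1 there were 3 calls in the matrix list. Its summed level was lower in fertile colonies, 33863, 34513 and 31845 in fertile libraries 1, 2 and 3 and 42306, 52004 and 59421 in infertile libraries 1, 2 and 3, with no overlap between the groups. By contig the list went both ways: 27 of 44 had a positive log2 difference, 10 had all fertile libraries above all infertile ones and 5 had all below. Of the 1994 tested contigs with a human homolog, 656 lay all above and 179 all below. Over all contigs tested the shares were 8.04% and 6.90%. With voom weights 2 of its contigs were called.

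The CRISP family of secreted cysteine-rich proteins includes members of mammalian sperm and epididymis, and 4 of 7 contigs were called (median log2 difference 5.84). Peptidase inhibitor 16 (Bot_c3440) held 352, 272 and 173 normalized counts in fertile libraries 1, 2 and 3 and 1.54, 2.07 and 6.49 in infertile libraries 1, 2 and 3, 78.9-fold higher (adjusted p = 0.00738). Bot_c16235 (CRISP LCCL domain-containing 2) held 208, 169 and 67.4 in the fertile libraries against 3.08, 0 and 2.16 in the infertile libraries (adjusted p = 0.0198), and Bot_c22741 (GLIPR1-like protein 1) held 465, 90.1 and 205 in the fertile libraries against 3.08, 0 and 4.33 in the infertile libraries (adjusted p = 0.0348). There was 1 call without fertile library 1 and there were 2 without fertile library 2 or infertile library 1, and with voom weights 0 (5 higher by limma at an unadjusted p under 0.05). Among 20 lipid and steroid enzymes 3 were called, all of fatty acyl-CoA reductase 1, which makes fatty alcohols (median log2 difference of the list 1.21). They were Bot_c2273 with 181, 84.5 and 75.5 in the fertile libraries against 1.54, 0 and 2.16 in the infertile libraries (adjusted p = 0.0111), CAP3_round1_contig_2258 with 206, 137 and 48.5 in the fertile libraries against 0, 0 and 2.16 in the infertile libraries (adjusted p = 0.0173) and Bot_c16716 with 178, 101 and 53.9 in the fertile libraries against 0, 2.07 and 6.49 in the infertile libraries (adjusted p = 0.0626). The enzyme calls numbered 2 without any library but infertile library 3, without which there were 5, and 0 with voom weights (7 higher by limma at an unadjusted p under 0.05).

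Of 21 membrane transporters 7 were called higher (median log2 difference 2.38). The GABA transporter 3 homolog Bot_c1264 held 701, 355 and 243 normalized counts in fertile libraries 1, 2 and 3 and 3.08, 6.21 and 2.16 in infertile libraries 1, 2 and 3, 113-fold higher (adjusted p = 0.00584). Choline transporter-like protein 3 (Bot_c4731) held 159.5, 77.0 and 48.5 in the fertile libraries against 1.54, 0 and 0 in the infertile libraries, 185-fold higher with a 95% counting interval of 33.2 to 7299 (adjusted p = 0.0108). Multidrug resistance protein 1 (Bot_c2465), an export pump, held 3595, 2718 and 1329.6 in the fertile libraries against 41.6, 93.1 and 80.1 in the infertile libraries (adjusted p = 0.0115), and both contigs of this homolog were called. Without fertile library 1 there were 3 calls and without fertile library 2 or infertile library 1 there were 4. Without infertile library 3 there were 8, and with voom weights there was 1.

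Homologs that mark muscle, gut and blood in other animals were examined in the same whole-colony libraries, and no contig is assigned to a tissue here. Muscle homologs had 5 calls in 22 tested contigs, but the summed muscle level overlapped between the groups, 43890.1, 29518 and 58261 in fertile libraries 1, 2 and 3 and 50129, 59947 and 53271 in infertile libraries 1, 2 and 3. The called contigs were 2 of troponin C and 1 each of cardiac alpha-actin, myosin-8 and tropomyosin alpha-3. Troponin C, the calcium sensor of striated muscle, was represented by Bot_rep_c51870, which held 490.2, 394 and 151.03 in the fertile libraries against 3.08, 2.07 and 2.16 in the infertile libraries (adjusted p = 0.00512), and by Bot_rep_c54184, which held 271, 158 and 80.9 in the fertile libraries against 0, 2.07 and 0 in the infertile libraries (adjusted p = 0.00942). The cardiac actin contig CAP3_round1_contig_9052 held 939, 1057 and 269.7 in the fertile libraries against 33.9, 39.3 and 32.5 in the infertile libraries (adjusted p = 0.038). Calls in the muscle list numbered 2 without fertile library 1 or 2, 3 without infertile library 1, 7 without infertile library 3 and 0 with voom weights. At an unadjusted p under 0.05 by limma, 13 muscle contigs were higher and 4 lower. In 13 all fertile libraries lay above all infertile ones, and in 5 all lay below. Of the 1994 tested contigs with a human homolog, 656 lay all above and 179 all below. Homologs of digestive enzymes, which mark the gut and its gland, had 1 call in 47 and 0 with voom weights (4 higher by limma at an unadjusted p under 0.05): the chymotrypsinogen B contig Bot_c16350 held 1344, 499 and 483 in the fertile libraries against 6.17, 10.3 and 2.16 in the infertile libraries (adjusted p = 0.00898), while Bot_rep_c36990 held 256, 124 and 127 in the fertile libraries against 3.08, 10.3 and 23.8 in the infertile libraries (adjusted p = 0.104) and Bot_c12296 held 63.1, 9.39 and 37.8 in the fertile libraries against 0, 0 and 4.33 in the infertile libraries (adjusted p = 0.234). Their summed level ranged widely within both groups, 128529, 123579 and 12395 in fertile libraries 1, 2 and 3 and 228858, 26452 and 14296 in infertile libraries 1, 2 and 3, and its part in the other results was not tested. There were 3 calls in this list without infertile library 3, the 3 chymotrypsinogen contigs given here.

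Blood and immune homologs had 2 calls in 31. Intelectin-2, a carbohydrate-binding lectin (Bot_rep_c35634), held 659.7, 974 and 1170.5 in the fertile libraries against 214, 188 and 173 in the infertile libraries (adjusted p = 0.0648), and the scavenger receptor M130 contig Bot_c30520 held 73.1, 54.4 and 16.2 in the fertile libraries against 1.54, 2.07 and 4.33 in the infertile libraries (adjusted p = 0.0978). Bot_c2179, with the same receptor homolog, held 517, 355 and 202 in the fertile libraries against 3.08, 37.3 and 19.5 in the infertile libraries and was not called (adjusted p = 0.13). Both calls were lost without fertile library 1 or 2 or any infertile library, and that of Bot_rep_c35634 also without fertile library 3. At an unadjusted p under 0.05 by limma, 14 of the 31 were higher and 0 lower, and with voom weights 0 were called. Over all 39112 contigs tested 2148 were higher and 994 lower at that p. The list holds only contigs named in the selected sheets, so that its count is no measure of a broad rise. Ribosomal proteins had 0 calls in 48 by limma, 4 of 48 had a positive log2 difference, and their median was -0.59. At an unadjusted p under 0.05, 1 was higher and 2 were lower, and with voom weights 0 were called higher. The 3 with the smallest p were 454_debris_rep_c1351 (S13) with 515, 205 and 294 in the fertile libraries against 673, 1076 and 608 in the infertile libraries (adjusted p = 0.581), Bot_c27997 (P0) with 356, 182 and 375 in the fertile libraries against 634, 635 and 574 in the infertile libraries (adjusted p = 0.582) and CAP3_round1_contig_7501 (L27a) with 12579.9, 22746 and 7565 in the fertile libraries against 2926, 8317 and 3498 in the infertile libraries (adjusted p = 0.6).

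**Figure D4:**
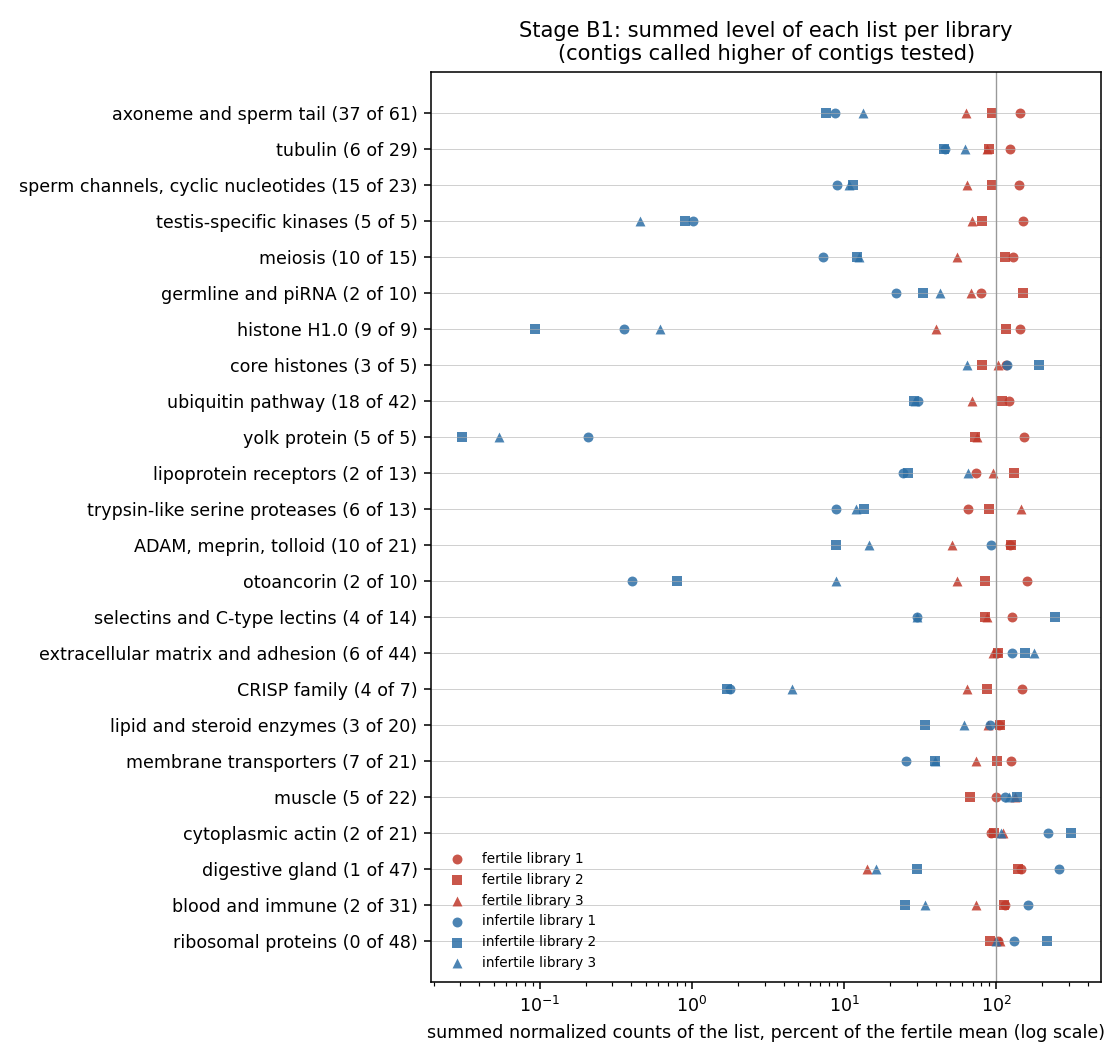
Summed normalized counts of each list in each stage B1 library, as a percent of the mean of the 3 fertile libraries (log scale); red, fertile; blue, infertile; contigs called higher of contigs tested in parentheses. Yolk, histone H1.0, kinase, otoancorin and CRISP contigs lie under 10% in every infertile library, while muscle, core histone and digestive lists overlap.

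Cytoplasmic actins, filament proteins of every cell, went both ways. Of 21 tested contigs 2 were called higher and 0 lower, and the median log2 difference was -1.43. Bot_rep_c44885 (beta-actin-like protein 2) held 2416, 2298 and 933 in the fertile libraries against 67.9, 124 and 103.9 in the infertile libraries (adjusted p = 0.0211), and Bot_rep_c56546 (actin, cytoplasmic 1) held 698, 336 and 181 in the fertile libraries against 9.25, 16.6 and 19.5 in the infertile libraries (adjusted p = 0.0285); both calls were lost without fertile library 1 or 2, and that of Bot_rep_c56546 also without infertile library 1 or 2. With voom weights 1 was called. Bot_rep_c51813, also actin, cytoplasmic 1, held 2056, 1738 and 728 in the fertile libraries against 13.9, 95.2 and 128 in the infertile libraries and was not called (adjusted p = 0.137). Of the 21, 13 were lower at an unadjusted p under 0.05 and 12 had all fertile libraries below all infertile ones. The latter compares with 6.90% of all contigs tested and with 179 of the 1994 tested contigs with a human homolog. The summed level was 51554, 53978 and 62705 in fertile libraries 1, 2 and 3 and 123819, 173355 and 60619.7 in infertile libraries 1, 2 and 3, so that infertile library 3 lay among the fertile libraries. Without that library 9 actin contigs were called lower in fertile colonies.

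The only contig called lower in fertile colonies with all libraries was Bot_rep_c53865, a homolog of collagen alpha-1(XI), a fibrillar matrix protein. It held 236, 249.6 and 227 normalized counts in fertile libraries 1, 2 and 3 and 777, 1091 and 965 in infertile libraries 1, 2 and 3, so that the groups did not overlap and infertile library 3 lay with its group. The infertile mean was 3.98 times the fertile mean (log2 difference -1.98 ± 0.32 (SE), adjusted p = 0.0667). The call was lost without any 1 of the fertile libraries or without infertile library 1 or 2, with adjusted p-values of 0.0989 to 0.41 over the 6 leave-outs. The next 4 by p were not called. Bot_c13217 (sidekick-1, an adhesion protein of the immunoglobulin family) held 4.99, 22.5 and 5.39 in the fertile libraries against 330.1, 151.11 and 80.1 in the infertile libraries (adjusted p = 0.11). Bot_rep_c55826 (C21orf63) held 1.66, 1.88 and 2.70 in the fertile libraries against 12.3, 18.6 and 58.4 in the infertile libraries (adjusted p = 0.143), Bot_c1296 (peptidyl-prolyl isomerase B, a folding enzyme of the secretory pathway) held 186, 143 and 159 in the fertile libraries against 452, 476 and 619 in the infertile libraries (adjusted p = 0.148), and CAP3_round1_contig_9182, with no homolog at hand, held 79.8, 103 and 124 in the fertile libraries against 302, 505 and 338 in the infertile libraries (adjusted p = 0.15). Each of these 5 had all fertile libraries below all infertile ones, as had 6.90% of all contigs tested.

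The smallest p-values among contigs higher in fertile colonies belonged mostly to contigs with no homolog at hand. Bot_c22849 held 258, 218 and 178 normalized counts in fertile libraries 1, 2 and 3 and 0, 0 and 0 in infertile libraries 1, 2 and 3 and was at least 37.7-fold higher (adjusted p = 0.00231). Bot_rep_c36303 held 1393, 859.7 and 588 in the fertile libraries and 0 in all 3 infertile libraries, at least 164-fold higher (adjusted p = 0.00231), and Bot_rep_c35798 held 951, 428 and 666 in the fertile libraries and 0 in all 3 infertile libraries, at least 118-fold higher (adjusted p = 0.00231). Bot_rep_c57379 held 1594, 1218 and 1017 in the fertile libraries against 3.08, 6.21 and 4.33 in the infertile libraries, 281-fold higher (adjusted p = 0.00305). The fifth was the H1.0 contig Bot_rep_c52805 given above. In all, 257 of the 505 called contigs had no human homolog in the sheets.

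Values at A1, a stage before B1, and at B2, the stage after it, placed the B1 difference in time. The 3 stages have separate libraries, the same genotypes recur, and library numbers are not shared between stages. The limma interaction of group and stage called 0 of 38970 contigs for B1 against A1 and 0 of 38648 for B1 against B2. At an unadjusted p under 0.05 there were 287 (0.736%) and 203 (0.525%), and recurring genotypes could not be modelled. Both shares lay under the 5% expected at that p with no difference at all. The interaction test was therefore conservative here, and its 0 calls do not show that the stages are alike. Of the 505 contigs called at B1, 500 of the 501 tested jointly had a positive log2 difference at A1 (median 5.16, against 5.34 at B1 in the same contigs) and 495 of 498 at B2 (median 3.996, against 5.35 at B1). At A1, 478 of 505 recovered contigs had all fertile libraries above all infertile ones, against 7.75% of all contigs whose mean reached 10, and at B2 393 of 504, against 4.90%. The difference was larger at B1 than at B2 in 461 of 498 contigs and larger at B1 than at A1 in 318 of 501; the contigs were chosen at B1, so that these counts describe them only.

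Of the 11 followed contigs, vtg-1 had the largest ratio of fertile means between B1 and A1. At A1 vtg-1 (CAP3_round1_contig_5534) held 2184, 2194 and 1003 in the fertile and 42.4, 9.13 and 84.3 in the infertile libraries of that stage, against a B1 fertile mean of 45604 ± 22582 (SD, n = 3). At B2 it could not be recovered per library, and the authors' means were 44523 and 74.6. The interaction for B1 against A1 was 4.53 ± 1.22 (SE) with an adjusted p of 1 by limma, so that it was not called. The receptor ldlr held 400.1, 241 and 314 in fertile and 35.4, 14.6 and 86.4 in infertile libraries at A1, and 1199, 925 and 1266 and 4.99, 9.45 and 2.59 at B2. For tsk-1 the values were 1422, 1322 and 1331 and 8.84, 9.13 and 2.06 at A1 and 4476, 1749 and 4342 and 179.6, 17.01 and 10.3 at B2. The fertile and infertile libraries of this kinase did not overlap at any of the 3 stages. For tll-1 the fertile libraries held 88.4, 19.6 and 87.5 at B2 and the infertile ones 23.3, 0 and 7.76, and the groups overlapped there, as they did for hsd17b8, at 55.0, 43.1 and 120.1 and 44.9, 17.01 and 10.3. At B2 infertile library 1, a library of that stage, held 1089 normalized counts of otoa against 41.6 and 56.9 in the other 2.

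**Figure D5:**
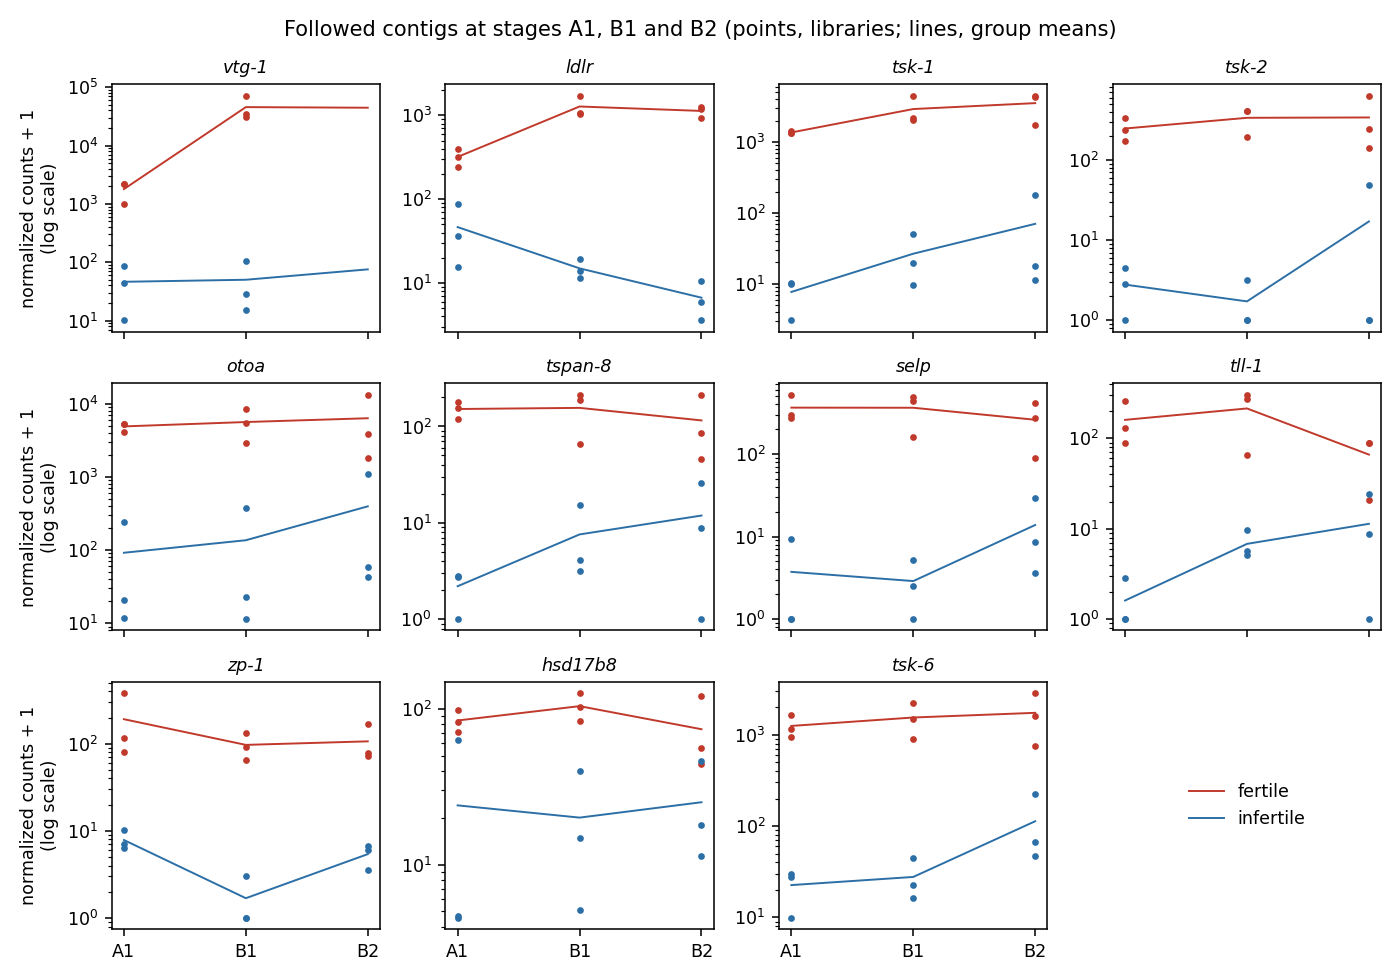
Normalized counts plus 1 (log scales) of the 11 followed contigs at stages A1, B1 and B2; points are libraries, lines join group means, red fertile and blue infertile. The vtg-1 mean in fertile colonies is far higher at B1 than at A1, and the groups come closest at B2 for tll-1 and hsd17b8; vtg-1 at B2 is the authors' mean only.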

How the data were processed

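Whole-colony RNA of Botryllus schlosseri was sequenced as paired-end polyA libraries. Per the labels and the study's methods, the authors trimmed the first 12 bases, aligned reads with Bowtie 0.12.7 to an EST assembly, counted them per contig with Sam2Counts (SAMtools 0.1.18) and compared them with DESeq 1.10.1. RSEM 1.2.3 served for FPKM values, which are not used here; CASAVA 1.8.2 and FastQC are also named. The deposited signal columns hold the mean of normalized counts over the 3 libraries of a group. The deposited fold changes and p-values of the authors' own comparisons were not used.

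A group mean is a sum of whole read pairs, each worth a fixed amount per library, and the 3 libraries were recovered by solving for these whole numbers. Of 1000 decoy values in each group and stage 0 were solved. The decoys were made from lower group means only, so that large means, such as that of vtg-1 in fertile colonies, were not covered. At B1 the lowest group mean left unresolved was 26062 normalized counts in infertile and 60879 in fertile colonies.

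Fertile and infertile libraries were compared with limma 3.58.1 in R 4.3.3 (lmFit, eBayes, two-sided) on log2(normalized count + 1). Contigs whose mean over the 6 libraries stayed under 10 were left out, and p-values were adjusted by Benjamini-Hochberg over all others, with a threshold of 10%. Differences are on the log2(value + 1) scale, which understates those of low contigs; ratios are of group means. Differences between stages were interaction terms of joint fits. Contigs named are the 10 that the study followed and tsk-6, the 3 of each list with the smallest p and any called lower, and the 5 with the smallest p in each direction. Further contigs were chosen after their values were seen. Tubulin polyglutamylases, which the search word for amylases had caught, were removed from the digestive list after values were seen. Members, lists and tests were chosen with earlier results of these data known. Alternatives were other thresholds, filters, pseudocounts, normalizations and variance models, and leaving out each library.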

Additional observations from a re-analysis of the deposited data

How the results depend on the processing

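The 505 contigs higher in fertile colonies became 159 at a 1% FDR and 99 with voom weights; under the other planned settings with all libraries the count lay between 363 and 546. The single contig lower in fertile colonies became 0 at 5% or 1% FDR, 2 with a pseudocount of 5, 3 when the filter was raised to 50 normalized counts, and 5 with no filter, with quantile normalization or with an intensity trend. Leaving out 1 library gave 212 (without fertile library 1) to 827 (without infertile library 3) higher and 0 (without fertile library 2 or infertile library 2) to 146 (without infertile library 3) lower, and 71 to 185 calls over the lists, against 164. Without both fertile library 3 and infertile library 3, a setting chosen after seeing the data, 530 were higher and 55 lower. None of 88 named contigs reversed in any of these settings, but many lost their call. With voom weights 47 did, and at a 1% FDR 34. The losses numbered 23 without fertile library 1, 19 without fertile library 2 and 16 without infertile library 1. Without infertile library 3, 5 contigs lost a call and 7 gained one. Scaling to equal totals moved the median log2 difference of all contigs by 0.15. No difference between stages was called with all libraries, without any 1 library, with a minimum of 50, a pseudocount of 5, an intensity trend or a 5% FDR. The other settings were not run for it. Since that interaction test was conservative, these 0 calls do not show that the stages are alike. The cause of these changes was not tested, beyond the fewer samples in each leave-out. No paired analysis was possible because the recovered libraries carry neither replicate number nor genotype, and values of supplementary tables were not used. Depth limits low contigs: 1 read pair was worth up to 2.70 normalized counts, and abundant contigs could not be recovered.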

Other observations

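Outside the lists, 89 contigs with a human homolog were called higher in fertile colonies; the 10 with the smallest limma p are given here, chosen after their values were seen. Creatine kinase U-type, which regenerates ATP at mitochondria, was represented by Bot_rep_c35370, which held 3018, 1783 and 1780.0 in the fertile libraries against 10.8, 8.28 and 4.33 in the infertile libraries (adjusted p = 0.00305), and by Bot_rep_c47814, which held 54.8, 41.3 and 48.5 in the fertile libraries and 0 in all 3 infertile libraries (adjusted p = 0.00305). The regulatory subunit of protein phosphatase 2A (Bot_rep_c51846) held 3638, 2194 and 1316 in the fertile libraries against 4.63, 6.21 and 4.33 in the infertile libraries (adjusted p = 0.00305). Bot_rep_c35625 (serine racemase, which makes D-serine) held 1749.9, 922 and 1009 in the fertile libraries against 13.9, 8.28 and 21.6 in the infertile libraries (adjusted p = 0.00459). Spermatogenesis-associated protein 21 (Bot_rep_c56365) held 2228, 1271 and 890.0 in the fertile libraries against 6.17, 4.14 and 4.33 in the infertile libraries, 299.8-fold higher (adjusted p = 0.00305).

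Of the other 5, intersectin-1, an endocytic scaffold (CAP3_round1_contig_6533), held 1825, 1021 and 634 in the fertile libraries against 1.54, 4.14 and 4.33 in the infertile libraries. Disks large-associated protein 5 (Bot_rep_c50447), a mitotic spindle protein in human cells, held 1894, 1061 and 1106 in the fertile libraries against 18.5, 26.9 and 15.2 in the infertile libraries. The contigs CAP3_round1_contig_3622 (FAM70B), Bot_c5483 (Sjoegren syndrome nuclear autoantigen 1) and CAP3_round1_contig_7600 (C20orf152) had 0, 0 and 1 infertile read pair and fertile means of 259.9, 34.8 and 529 normalized counts. In each of the 10 the fertile libraries lay above all infertile ones, as they did in all 505 called contigs.

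The 146 contigs called lower in fertile colonies when infertile library 3 was left out were selected by the absence of that library from the test, so that its own level in them is given only as a value. Of these contigs 28 had a human homolog. Actin, cytoplasmic 2 (Bot_rep_c47438) held 824, 995 and 893 in the fertile libraries, 13826 and 32534 in infertile libraries 1 and 2 and 1487 in infertile library 3. ADP/ATP translocase 3, the mitochondrial nucleotide carrier (CAP3_round1_contig_6144), held 2067, 1973 and 1575 in the fertile libraries, 15101 and 19979 in infertile libraries 1 and 2 and 1781 in infertile library 3. The 17-beta-hydroxysteroid dehydrogenase 14 contig CAP3_round1_contig_2142 held 26.6, 9.39 and 29.7 in the fertile libraries, 1876 and 762 in infertile libraries 1 and 2 and 15.2 in infertile library 3. Collectin-10, a soluble lectin of innate immunity (Bot_rep_c36137), held 1.66, 0 and 0 in the fertile libraries, 776 and 306 in infertile libraries 1 and 2 and 0 in infertile library 3. These 4 were picked for their annotation after their values were seen, and whether the pattern follows genotype or condition was not tested, since the recovered libraries carry no name.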
